A study of Mus musculus with 32 samples.

Results

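Usp2, Noct, Wee1, Nampt and Rgs16 are liver genes whose RNA follows the circadian clock without being part of its core loop. They were picked by name, and their probes were found through the RefSeq identifier that each array probe carries, so the 5 genes are 5 of 23110 genes tested and each was read by 1 probe. Livers came from 32 wild-type C57BL/6 males, all housed singly, and each RNA was read on its own 1-colour Agilent array. Under chronic jet lag (CJ), 16 mice changed rooms from the age of 4 weeks on, with lights coming on 8 h apart in the 2 rooms, and the 16 steady mice (NS) stayed in 12 h of light and 12 h of dark. Livers were taken at 30 and at 12 weeks of age at zeitgeber time (ZT, hours after lights on) 2, 10 and 18, with 2 mice per group at ZT2 and 3 mice per group at ZT10 and ZT18. For CJ mice the time since their last room change is not stated, so a shifted rhythm and a flattened one cannot be told apart from 3 times of day.

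In the mammalian clock the activators BMAL1 and CLOCK bind E-box sequences and switch on genes that include their own repressors, the PER and CRY proteins. The same activators, and PAR bZIP factors such as DBP that they induce, also drive output genes that carry time of day into metabolism, cell division and signalling. In liver many such genes also follow feeding, which in mice falls mostly in the dark phase. Usp2 encodes a deubiquitinating enzyme that removes ubiquitin from target proteins. Noct encodes nocturnin, a phosphatase of NADP and NADPH that is related in sequence to CCR4-type deadenylases. Wee1 encodes a kinase that holds CDK1 inactive and so restrains entry into mitosis. Nampt encodes the rate-limiting enzyme of NAD salvage from nicotinamide. Rgs16 encodes a GTPase-activating protein that shortens signalling by Gi and Gq proteins.

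The 5 probes are, with the chromosome of the gene from RefSeq, A_55_P1985788 (Usp2, chromosome 9), A_55_P1968723 (Noct, chromosome 3), A_66_P136186 (Wee1, chromosome 7), A_51_P387235 (Nampt, chromosome 12) and A_51_P249286 (Rgs16, chromosome 1). All 5 were well above background on all 32 arrays. RefSeq promoters (build GRCm38.p6) matched 4 of the 5 genes (not Wee1). The 250 bases before the start are shown for 3 of them, since the first 2 gave similar profiles over the groups and Rgs16 a different one. All 3 run on the plus strand, and capitals mark CG dinucleotides.
Usp2 (chr9:44084670-44084919): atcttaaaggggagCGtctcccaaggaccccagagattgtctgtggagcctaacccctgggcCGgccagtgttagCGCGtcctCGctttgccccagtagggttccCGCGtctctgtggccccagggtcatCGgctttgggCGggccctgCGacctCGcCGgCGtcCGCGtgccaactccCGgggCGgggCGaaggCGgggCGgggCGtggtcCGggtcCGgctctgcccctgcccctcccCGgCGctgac
Noct (chr3:51224197-51224446): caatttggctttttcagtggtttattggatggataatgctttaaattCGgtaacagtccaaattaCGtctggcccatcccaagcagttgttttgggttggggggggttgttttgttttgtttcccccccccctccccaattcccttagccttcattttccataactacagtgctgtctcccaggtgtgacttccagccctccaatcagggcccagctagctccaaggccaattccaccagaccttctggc
Rgs16 (chr1:153740103-153740352): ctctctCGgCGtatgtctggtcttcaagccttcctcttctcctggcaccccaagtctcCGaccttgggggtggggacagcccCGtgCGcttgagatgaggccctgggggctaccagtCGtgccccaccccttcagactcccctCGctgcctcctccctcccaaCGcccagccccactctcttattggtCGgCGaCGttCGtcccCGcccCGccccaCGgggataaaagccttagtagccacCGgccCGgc
These stretches hold 25 CG dinucleotides in Usp2, 2 in Noct and 17 in Rgs16, with a GC content of 71.6%, 49.6% and 66.4%. Over 300 bases around the start (250 before, 50 from it), GC content was 71.7% in Usp2, 52% in Noct, 76.3% in Nampt and 66% in Rgs16, against a median of 52.7% over 32851 promoters of that length. The E-box CACGTG stands in 7.15% of those promoters on either strand, the variant CACGTT in 4.68%, the D-box forms TTATGTAA in 0.938% and TTACGTAA in 0.119%, and the ROR and REV-ERB element TAGGTCA in 2.61%. The 4 promoters held 0 of these 5 motifs, which says only that the letters are not in these windows.

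Levels are log2 of the processed signal set against the 75th percentile of that array's signals, so 0 is a gene at that percentile and 1 unit is a factor of 2. Between 43.4% and 58.1% of probes were well above background on an array, and 0 spots were saturated. Hepatocyte markers (8 of 8) were detected on every array, with a summed level of 11.98 to 12.47 in CJ mice and 12.04 to 12.51 in NS mice. Markers of other tissues varied: the summed level of 12 skeletal muscle markers ran from 0.96 to 7.98 in CJ mice and from 0.72 to 6.62 in NS mice, with medians of 1.57 at ZT2, 2.84 at ZT10 and 5.73 at ZT18. That of 12 pancreatic acinar markers ran from 1.45 to 7.91 in CJ mice and from 1.42 to 6.39 in NS mice. By the mean log2 level of the 12 markers, not the summed level, muscle markers lay more than 2 log2 above the median array on 9 arrays (5 CJ, 4 NS). By the same measure acinar markers did so on 10 (7 CJ, 3 NS). In whole tissue, fewer cells of a type and less RNA per cell cannot be told apart. The 2 CJ mice at ZT2 and 30 weeks stood far apart in 4 of the 5 genes, by 2.74 in Usp2, 2.21 in Wee1, 1.15 in Nampt and 5.48 in Rgs16, and by 0.87 in Noct. Their muscle and acinar markers were low (summed levels 1.37 and 1.42, and 1.57 and 1.59). Calls that changed without 1 of them are given with that value.

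The first question was how far each gene varied over the day within each schedule. Tests are limma's moderated tests over all 12 groups with Benjamini-Hochberg adjustment over all 23110 genes, and an adjusted p under 0.05 counts as a change. The daily range is the gap between the top and the bottom fitted mean of the 3 times. In NS mice all 5 genes changed over the day at both ages, against 11.2% of all genes at 30 weeks and 17.5% at 12 weeks. In CJ mice 4 of 5 changed at each age, against 3.71% of all genes at 30 weeks, where Noct did not pass, and 5.67% at 12 weeks, where Rgs16 did not pass. The CJ count at 30 weeks fell to 0 without the second CJ mouse at ZT2. At 12 weeks it stayed at 4 with each of the 32 arrays left out in turn. Some other settings lowered the CJ counts at both ages, as given at the end. The members' median range was 1.60 in CJ and 3.23 in NS mice at 30 weeks, where the median of all genes was 0.27 in CJ and 0.31 in NS mice. At 12 weeks it was 2.57 in CJ and 3.91 in NS mice, with 0.29 and 0.34 for all genes.

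**Figure D1:**
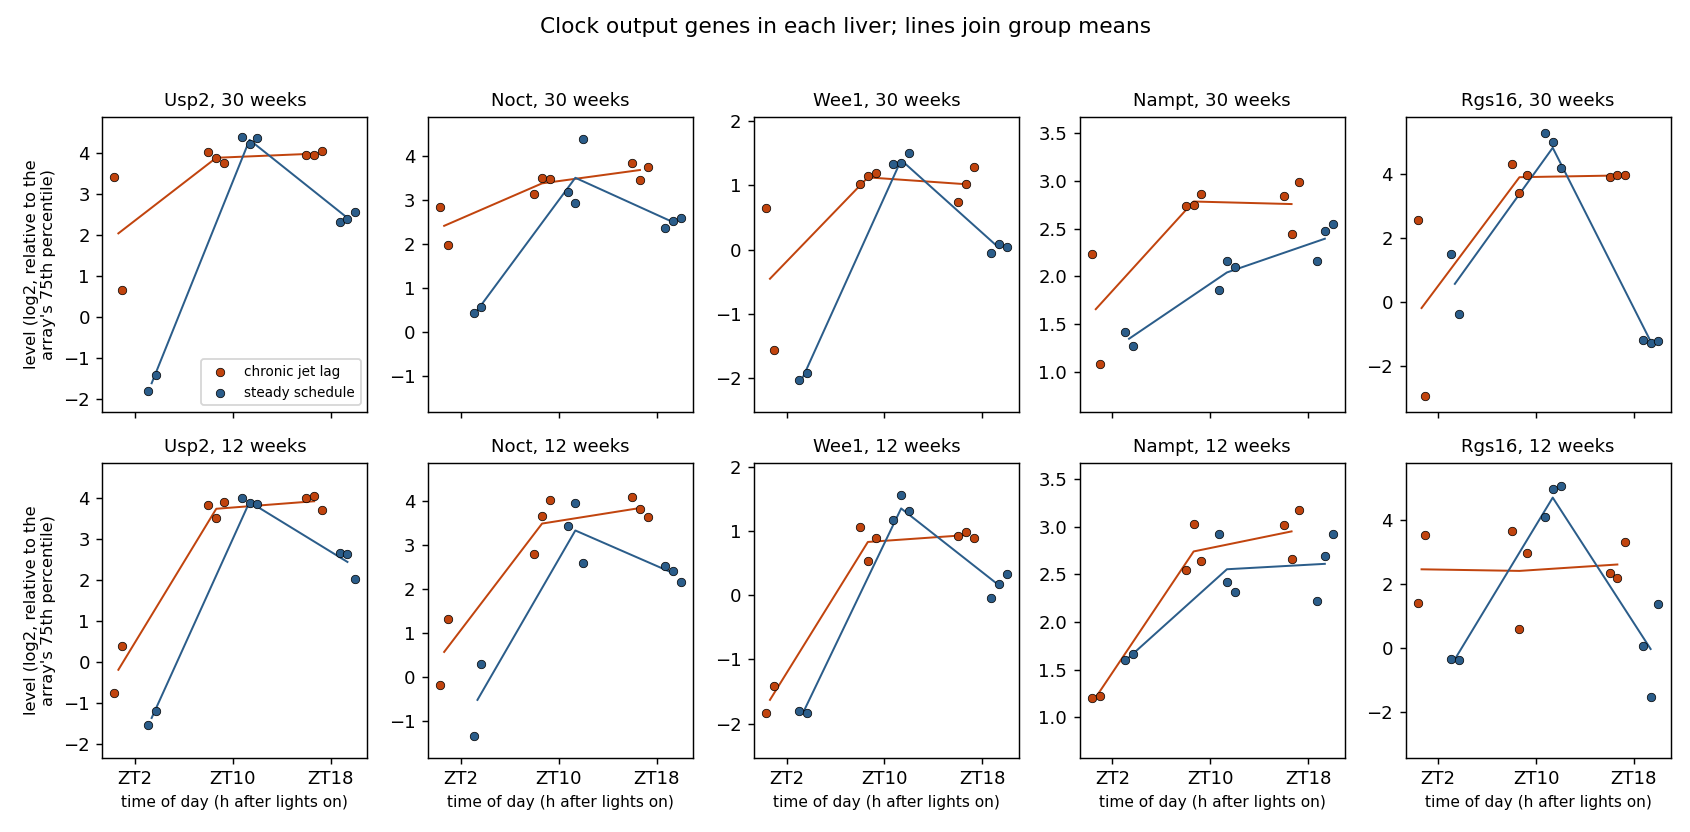
Level of each gene (log2 relative to the array's 75th percentile) in every mouse against time of day, at 30 weeks (upper panels) and 12 weeks (lower panels), with CJ mice in orange to the left of NS mice in blue; lines join the group means, and each gene has its own vertical scale. At ZT18 all CJ mice lie above all NS mice in Usp2, Noct, Wee1 and Rgs16, and the CJ pair at ZT2 and 30 weeks is widely split.

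In group means Usp2 was lower at ZT2 than at ZT10 in both schedules. From ZT10 to ZT18 it fell in NS mice but not in CJ mice. At ZT2 and 30 weeks 1 of the 2 CJ mice read 3.40, near the CJ values at ZT10. At 30 weeks and ZT2, Usp2 read 3.40 and 0.66 in CJ mice, against -1.82 and -1.43 in NS mice. At ZT10 it read 4.01, 3.86 and 3.75 in CJ mice, against 4.37, 4.20 and 4.36 in NS mice. At ZT18 it read 3.94, 3.94 and 4.04 in CJ mice, against 2.30, 2.37 and 2.55 in NS mice. The schedules did not overlap at any of these times: CJ mice were above NS mice at ZT2 and ZT18 and below them at ZT10. The fitted difference at ZT10 was -0.29 ± 0.37 (SE, limma, adjusted p = 0.846). Groups of 2 or 3 mice can separate by scatter alone. The share of all genes that separate in this way is given only for ZT18, below. At 12 weeks and ZT2, Usp2 read -0.75 and 0.39 in CJ mice, against -1.53 and -1.18 in NS mice. At ZT10 it read 3.83, 3.51 and 3.90 in CJ mice, against 4.00, 3.88 and 3.86 in NS mice. At ZT18 it read 4.01, 4.06 and 3.72 in CJ mice, against 2.68, 2.64 and 2.03 in NS mice. All CJ mice again lay above all NS mice at ZT2 and ZT18, while at ZT10 the schedules overlapped.

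The daily range of Usp2 was 1.95 (3.88-fold, adjusted p = 0.0115) in CJ mice and 5.83 (56.7-fold, adjusted p = 7.31e-08) in NS mice at 30 weeks. At 12 weeks it was 3.99 (15.8-fold, adjusted p = 5.01e-06) in CJ mice and 5.38 (41.6-fold, adjusted p = 6.87e-08) in NS mice. The CJ range was thus 33.4% of the NS range at 30 weeks and 74.2% at 12 weeks. Without the second CJ mouse at ZT2 the range at 30 weeks was 0.63 in CJ mice (adjusted p = 0.624), and without the first it was 3.27. In the order of the 12 group means, the NS mice at ZT10 and 30 weeks stood highest (4.31 ± 0.10) and the NS mice at ZT2 and 30 weeks lowest (-1.63 ± 0.27, SD). The 5 groups from rank 2 to rank 6 (all CJ groups at ZT10 and ZT18, and NS at ZT10 and 12 weeks) lay between 3.97 and 3.75 with no step among them beyond the larger SD of the 2 neighbours. Over the whole order 4 of 11 steps exceeded it.

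Noct had a shape like that of Usp2 with more scatter among mice. At 30 weeks and ZT2, Noct read 2.84 and 1.97 in CJ mice, against 0.42 and 0.56 in NS mice. At ZT10 Noct read 3.13, 3.50 and 3.48 in CJ mice, against 3.18, 2.93 and 4.38 in NS mice. At ZT18 Noct read 3.83, 3.44 and 3.75 in CJ mice, against 2.35, 2.52 and 2.59 in NS mice. CJ mice were all above NS mice at ZT2 and ZT18, and the schedules overlapped at ZT10. At 12 weeks and ZT2, Noct read -0.17 and 1.33 in CJ mice, against -1.32 and 0.30 in NS mice. At ZT10 Noct read 2.80, 3.66 and 4.03 in CJ mice, against 3.45, 3.97 and 2.60 in NS mice. At ZT18 Noct read 4.09, 3.82 and 3.64 in CJ mice, against 2.53, 2.42 and 2.16 in NS mice. At this age only ZT18 separated the schedules.

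The daily range of Noct was 1.11 (adjusted p = 0.28) in CJ mice and 3.09 (8.53-fold, adjusted p = 0.000175) in NS mice at 30 weeks. At 12 weeks it was 3.27 (9.68-fold, adjusted p = 0.000125) in CJ mice and 3.91 (15-fold, adjusted p = 7.58e-06) in NS mice. The CJ range was 35.9% of the NS range at 30 weeks and 83.6% at 12 weeks. The highest of the 12 group means was that of CJ mice at ZT18 and 12 weeks (3.85 ± 0.22) and the lowest that of NS mice at ZT2 and 12 weeks (-0.51 ± 1.15). The top 6 means, those of CJ mice at ZT10 and ZT18 and of NS mice at ZT10, lay between 3.85 and 3.34, and no step among them exceeded the larger SD. Over all 11 steps, 2 exceeded it.

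Wee1 followed the same course as Usp2 over a narrower range, and its NS mice lay close together. At 30 weeks and ZT2, Wee1 read 0.65 and -1.56 in CJ mice, against -2.03 and -1.93 in NS mice. At ZT10 it read 1.03, 1.15 and 1.20 in CJ mice, against 1.34, 1.35 and 1.50 in NS mice. At ZT18 it read 0.74, 1.03 and 1.29 in CJ mice, against -0.05, 0.09 and 0.04 in NS mice. The schedules did not overlap at any time, with CJ mice higher at ZT2 and ZT18 and lower at ZT10. The fitted difference at ZT10 was -0.18 ± 0.30 (SE, limma, adjusted p = 0.895). At 12 weeks and ZT2, Wee1 read -1.84 and -1.42 in CJ mice, against -1.81 and -1.84 in NS mice. At ZT10 it read 1.07, 0.53 and 0.90 in CJ mice, against 1.18, 1.57 and 1.32 in NS mice. At ZT18 it read 0.93, 0.99 and 0.90 in CJ mice, against -0.04, 0.18 and 0.33 in NS mice. Here ZT2 overlapped, while CJ mice lay below NS mice at ZT10 and above them at ZT18. The fitted difference at ZT10 and 12 weeks was -0.51 ± 0.30 (adjusted p = 0.405).

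The daily range of Wee1 was 1.60 (3.02-fold, adjusted p = 0.0118) in CJ mice and 3.23 (9.38-fold, adjusted p = 5.87e-06) in NS mice at 30 weeks. At 12 weeks it was 2.57 (5.94-fold, adjusted p = 6.93e-05) in CJ mice and 3.26 (9.58-fold, adjusted p = 3.12e-06) in NS mice. The CJ range was 49.5% of the NS range at 30 weeks and 78.8% at 12 weeks. Without the second CJ mouse at ZT2 and 30 weeks it was 0.47 (adjusted p = 0.562), and without the first 2.72. The order of means ran from NS at ZT10 and 30 weeks (1.39 ± 0.09) to NS at ZT2 and 30 weeks (-1.98 ± 0.07), and 3 of 11 steps exceeded the larger SD. The 4 CJ groups at ZT10 and ZT18 stood next to each other between 1.12 and 0.84 with no step among them beyond it.

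Nampt had the narrowest daily range in NS mice. At ZT2 it averaged 1.66 ± 0.81 in CJ and 1.34 ± 0.10 in NS mice at 30 weeks (SD, n = 2 each), and 1.21 ± 0.01 in CJ and 1.63 ± 0.04 in NS mice at 12 weeks. At ZT10 it averaged 2.78 ± 0.07 in CJ and 2.04 ± 0.16 in NS mice at 30 weeks (SD, n = 3 each), and 2.74 ± 0.25 in CJ and 2.55 ± 0.33 in NS mice at 12 weeks. At ZT18 it averaged 2.76 ± 0.29 in CJ and 2.39 ± 0.20 in NS mice at 30 weeks, and 2.95 ± 0.26 in CJ and 2.61 ± 0.35 in NS mice at 12 weeks. It was the only one of the 5 genes whose schedules overlapped at ZT18 at both ages. At ZT10 and 30 weeks all CJ mice (2.74, 2.75 and 2.86) lay above all NS mice (1.86, 2.16 and 2.10). At ZT2 and 12 weeks both CJ mice (1.20 and 1.22) lay below both NS mice (1.60 and 1.66). Neither difference passed (limma, adjusted p = 0.143 at ZT10 and 30 weeks and 0.643 at ZT2 and 12 weeks).

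The daily range of Nampt was 0.98 (1.97-fold, adjusted p = 0.0342) in CJ mice and 1.20 (2.3-fold, adjusted p = 0.00678) in NS mice at 30 weeks. At 12 weeks it was 1.68 (3.2-fold, adjusted p = 0.000299) in CJ mice and 1.01 (2.02-fold, adjusted p = 0.00843) in NS mice, which made it the one gene with a wider range in CJ mice (166% of the NS range, and 81.7% at 30 weeks). The difference in range was not tested on its own, and the test of schedule by time of day gave an adjusted p of 0.539 at 12 weeks. Without the second CJ mouse at ZT2 and 30 weeks the CJ range at that age was 0.41 (adjusted p = 0.778), and without the first 1.55. With 1 array left out in turn, the CJ call of Nampt at 30 weeks was lost in 5 of 32 fits. Its NS call was lost in 1 of 32 fits at 30 weeks (range 1.12) and in 2 at 12 weeks (0.96 and 1.06), each without an NS mouse at ZT2. All 4 CJ groups at ZT10 and ZT18 held the top 4 ranks, between 2.95 and 2.74, but 3 of the 11 steps in the order exceeded the larger SD and none of these lay among the top 7.

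Rgs16 had the largest scatter within groups of the 5 genes. At 30 weeks and ZT2, Rgs16 read 2.55 and -2.93 in CJ mice, against 1.50 and -0.37 in NS mice. At ZT10 Rgs16 read 4.30, 3.41 and 3.98 in CJ mice, against 5.28, 4.99 and 4.18 in NS mice. At ZT18 Rgs16 read 3.90, 3.98 and 3.97 in CJ mice, against -1.20, -1.27 and -1.22 in NS mice. Only ZT18 separated the schedules, and there both groups were tight (3.95 ± 0.04 in CJ and -1.23 ± 0.03 in NS mice, SD, n = 3 each). At 12 weeks and ZT2, Rgs16 read 1.39 and 3.51 in CJ mice, against -0.35 and -0.37 in NS mice. At ZT10 Rgs16 read 3.66, 0.57 and 2.97 in CJ mice, against 4.08, 4.95 and 5.04 in NS mice. At ZT18 Rgs16 read 2.32, 2.17 and 3.31 in CJ mice, against 0.05, -1.54 and 1.37 in NS mice. All CJ mice lay above NS mice at ZT2 and ZT18 and below them at ZT10. None of these differences passed (limma, adjusted p = 0.359 at ZT2, 0.135 at ZT18 and 0.2 at ZT10).

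The daily range of Rgs16 was 4.25 (19-fold, adjusted p = 0.0342) in CJ mice and 5.54 (46.5-fold, adjusted p = 0.00134) in NS mice at 30 weeks. At 12 weeks it was 0.28 (adjusted p = 0.989) in CJ mice and 5.48 (44.5-fold, adjusted p = 0.000551) in NS mice, so that the CJ range was 5.11% of the NS range, against 76.7% at 30 weeks. The CJ value at 30 weeks turned most on the pair at ZT2: without the second mouse the range was 1.30, and without the first 7.20. Its call was lost in 5 of the 32 fits with 1 array left out, the fit without the second mouse among them. NS mice at ZT10 held the top 2 ranks (4.82 ± 0.57 at 30 weeks and 4.69 ± 0.53 at 12 weeks) and NS mice at ZT18 and 30 weeks the last. The 3 CJ groups at 12 weeks stood together at 2.60, 2.45 and 2.40, with SDs of 0.62 to 1.62, and 4 of 11 steps in the order exceeded the larger SD.

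**Figure D2:**
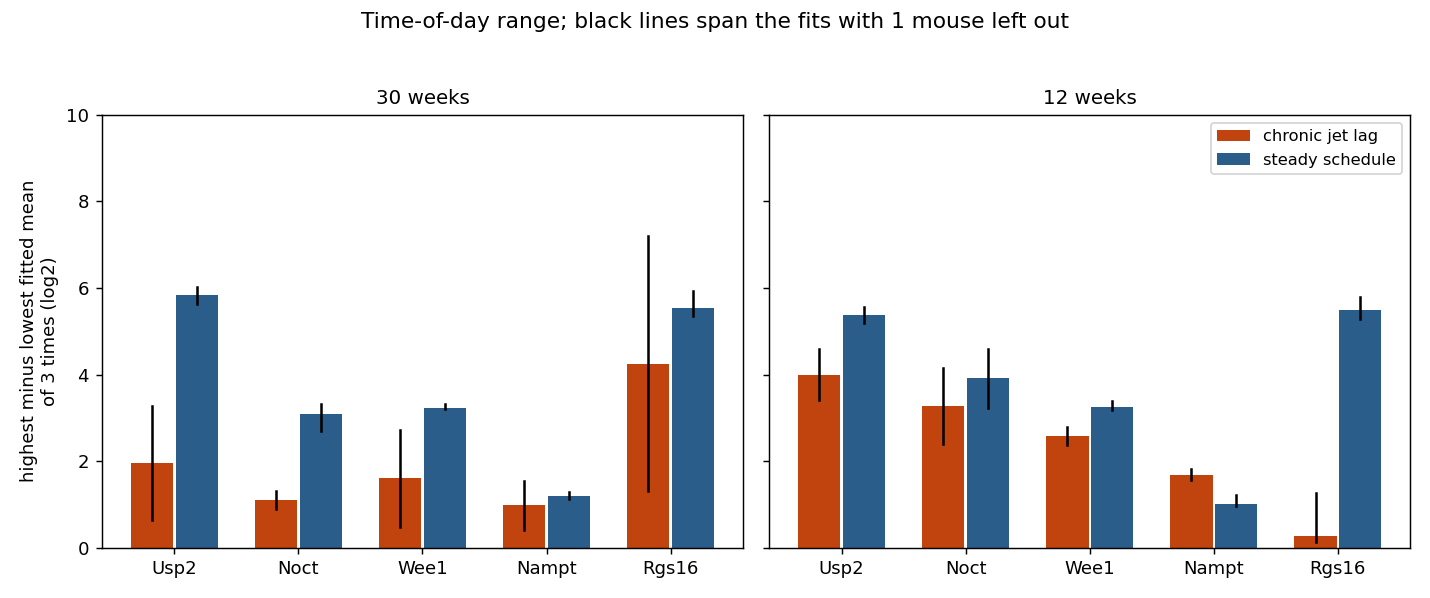
Daily range of each gene (gap between the top and bottom fitted means of ZT2, ZT10 and ZT18, log2) at 30 and 12 weeks, with CJ bars left of NS bars; black lines span the values when each of the 32 arrays is left out in turn. At 30 weeks the CJ bar of Usp2 stands at 1.95 beside 5.83 in NS mice, and the line of Rgs16 in CJ mice at that age spans 1.30 to 7.20.

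From ZT10 to ZT18 levels of Usp2, Wee1 and Rgs16 fell in NS mice. None of the 5 genes passed the test of that step in CJ mice, where hardly any gene on the array did. In NS mice 3 of the 5 genes were lower at ZT18 than at ZT10 at both ages, against 10.1% of all genes changed at 30 weeks and 14.4% at 12 weeks. Usp2 fell by 1.69 ± 0.38 at 30 weeks (SE, adjusted p = 0.00559) and fell by 1.68 ± 0.38 at 12 weeks (adjusted p = 0.00468) in NS mice. Wee1 fell by 1.24 ± 0.31 at 30 weeks (adjusted p = 0.0107) and fell by 1.31 ± 0.31 at 12 weeks (adjusted p = 0.00569). Rgs16 fell by 5.54 ± 0.97 at 30 weeks (46.5-fold, adjusted p = 0.000552) and fell by 5.15 ± 0.97 at 12 weeks (35.6-fold, adjusted p = 0.000881). Noct gave -0.99 ± 0.40 (adjusted p = 0.134) and -1.16 ± 0.40 (adjusted p = 0.0532), and Nampt 0.42 ± 0.22 and -0.01 ± 0.22. In CJ mice 0 of 5 genes differed between ZT18 and ZT10 at either age, where the share of all genes was 0% at 30 weeks and 0.026% at 12 weeks. At limma's unadjusted p under 0.05 the count was also 0 of 5 at both ages, against 7.07% of all genes at 30 weeks and 7.02% at 12 weeks. The CJ differences ran from -0.12 to 0.12 at 30 weeks and from -0.07 to 0.34 at 12 weeks.

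The difference between schedules in that step was tested in a fit without the ZT2 groups, an alternative chosen after seeing the data. There 3 of 5 genes differed at both ages, against 2.46% of all genes at 30 weeks and 1.83% at 12 weeks. For Usp2 the step differed by 2.05 at 30 weeks (adjusted p = 6.69e-05) and by 1.62 at 12 weeks (adjusted p = 0.000587). For Wee1 it differed by 1.34 (adjusted p = 0.00138) and 1.27 (adjusted p = 0.00233). For Rgs16 it differed by 6.22 (adjusted p = 0.000862) and 4.65 (adjusted p = 0.00775). Noct (1.35 and 1.31, adjusted p = 0.146 and 0.172) and Nampt (0.35 and 0.12) did not pass.

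With all 3 times, the test of schedule by time of day called 2 of 5 genes at 30 weeks, against 1.86% of all genes. They were Usp2 (the CJ minus NS difference varied by 3.92 over the times, adjusted p = 0.004) and Rgs16 (6.16, adjusted p = 0.0369, a call lost without any 1 of 12 of the 32 arrays). Noct varied by 2.10 (adjusted p = 0.178), Wee1 by 1.63 (adjusted p = 0.141) and Nampt by 0.45 (adjusted p = 0.789). Wee1 at 30 weeks passed without the first CJ mouse at ZT2 (1.28, adjusted p = 0.00405) and without the second (2.84, adjusted p = 7e-06). At 12 weeks the test called 0 of 5, against 1.93% of all genes. By limma's unadjusted p under 0.05 it called 4 of 5, against 14.9% of all genes. The values were 1.68 for Usp2 (adjusted p = 0.193), 1.51 for Noct (0.316), 1.29 for Wee1 (0.254), 0.68 for Nampt (0.539) and 5.19 for Rgs16 (0.0671). With either CJ mouse at ZT2 and 30 weeks left out, whose spread enters the shared error, the test at 12 weeks called Usp2 (adjusted p = 0.00748), Wee1 (0.00306) and Rgs16 (0.00532).

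The next question was at which times the schedules differed. At ZT18, 2 of 5 genes were higher in CJ mice at 30 weeks, against 3.52% of all genes changed, and 2 of 5 at 12 weeks, against 2.88%. At both ages all CJ mice lay above all NS mice in 4 of 5 genes, as they did in 13.3% of all genes at 30 weeks and 9.05% at 12 weeks. Usp2 rose by 1.44 ± 0.37 at 30 weeks (2.71-fold, adjusted p = 0.0313) and by 1.49 ± 0.37 at 12 weeks (2.8-fold, adjusted p = 0.0321). Rgs16 rose by 4.98 ± 0.94 at 30 weeks (31.6-fold, adjusted p = 0.00399) and had 2.71 ± 0.94 at 12 weeks (adjusted p = 0.135). Noct had 1.04 ± 0.39 at 30 weeks (adjusted p = 0.149) and rose by 1.58 ± 0.39 at 12 weeks (3-fold, adjusted p = 0.027). Wee1 had 0.95 ± 0.30 (adjusted p = 0.0818) and 0.78 ± 0.30 (adjusted p = 0.18), and Nampt 0.27 ± 0.22 and 0.32 ± 0.22. With either CJ mouse of ZT2 and 30 weeks left out, Wee1 passed at 30 weeks (1.02, adjusted p = 0.00015) and 12 weeks (0.78, adjusted p = 0.00243), and Rgs16 at 12 weeks (adjusted p = 0.0241). Leaving out any 1 of the 6 mice compared took the call from Usp2 at 30 weeks (values 1.33 to 1.52) and from Noct at 12 weeks (1.48 to 1.75), and 5 of the 6 did so for Usp2 at 12 weeks (1.28 to 1.54). Rgs16 at 30 weeks passed in all 32 such fits (4.75 to 5.22). The members' median was 1.04 at 30 weeks and 1.49 at 12 weeks, where that of all genes was -0.02 and 0.03.

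Muscle markers were highest at ZT18, with 3 CJ and 4 NS arrays there over the limit. Leaving out the muscle-rich arrays kept 1 CJ and 1 NS mouse of ZT18 at 30 weeks and 2 CJ and 1 NS mouse at 12 weeks. Usp2 then differed by 1.66 at 30 weeks and 2.00 at 12 weeks and Rgs16 by 5.24 at 30 weeks. Without the acinar-rich arrays (2 CJ and 3 NS mice kept at 30 weeks, 2 CJ and 1 NS at 12 weeks) Usp2 differed by 1.51 and 1.88, Rgs16 by 4.91 at 30 weeks and Noct by 1.65 at 12 weeks. With fewer mice none of these passed (lowest adjusted p = 0.0554, Rgs16). Rgs16 at 12 weeks was smaller in these fits, at 1.17 and 1.86. On the 1 slide at each age that held a CJ and an NS mouse of ZT18, Usp2 differed by 1.66 and 1.38, Noct by 1.23 and 1.28, Wee1 by 1.20 and 1.02, Nampt by 0.52 and 0.44 and Rgs16 by 5.24 and 2.11 (30 weeks, then 12 weeks), with 1 pair each and so no test. The pair at 30 weeks is the one that was left without the muscle-rich arrays.

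At ZT2, 2 of 5 genes were higher in CJ mice at 30 weeks, against 1.39% of all genes changed. Usp2 rose by 3.62 ± 0.47 (12.3-fold, adjusted p = 0.00021), and its value ran from 2.30 to 4.94 when each array was left out in turn and passed in all 32 fits. Noct rose by 2.04 ± 0.48 (4.11-fold, adjusted p = 0.0344), a call that was lost without any 1 of the 4 mice compared (1.83 to 2.25). Wee1 had 1.46 ± 0.37 (adjusted p = 0.052), Nampt 0.51 ± 0.27 and Rgs16 -1.18 ± 1.18. Without the first CJ mouse Wee1 had 0.33, Nampt -0.06 and Rgs16 -4.12. Without the second, Wee1 (2.58, adjusted p = 3.26e-07) and Nampt (1.08, adjusted p = 0.0355) passed and Rgs16 had 1.77. At 12 weeks 0 of 5 passed at ZT2, against 0.247% of all genes, and 3 of 5 had limma's unadjusted p under 0.05, against 11.5% of all genes. There Usp2 had 1.20 ± 0.47 (adjusted p = 0.318), Noct 1.05 ± 0.48 (adjusted p = 0.414) and Rgs16 2.82 ± 1.18 (adjusted p = 0.359). At ZT10 0 of 5 passed at either age, where the share of all genes was 0.679% at 30 weeks and 1.81% at 12 weeks. At limma's unadjusted threshold 1 of 5 passed at each age (Nampt at 30 weeks, 0.71 ± 0.22, adjusted p = 0.143, and Rgs16 at 12 weeks, -2.37 ± 0.94, adjusted p = 0.2), against 11.8% of all genes at 30 weeks and 16.8% at 12 weeks. The other 3 genes lay between -0.51 and 0.08 at ZT10.

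**Figure D3:**
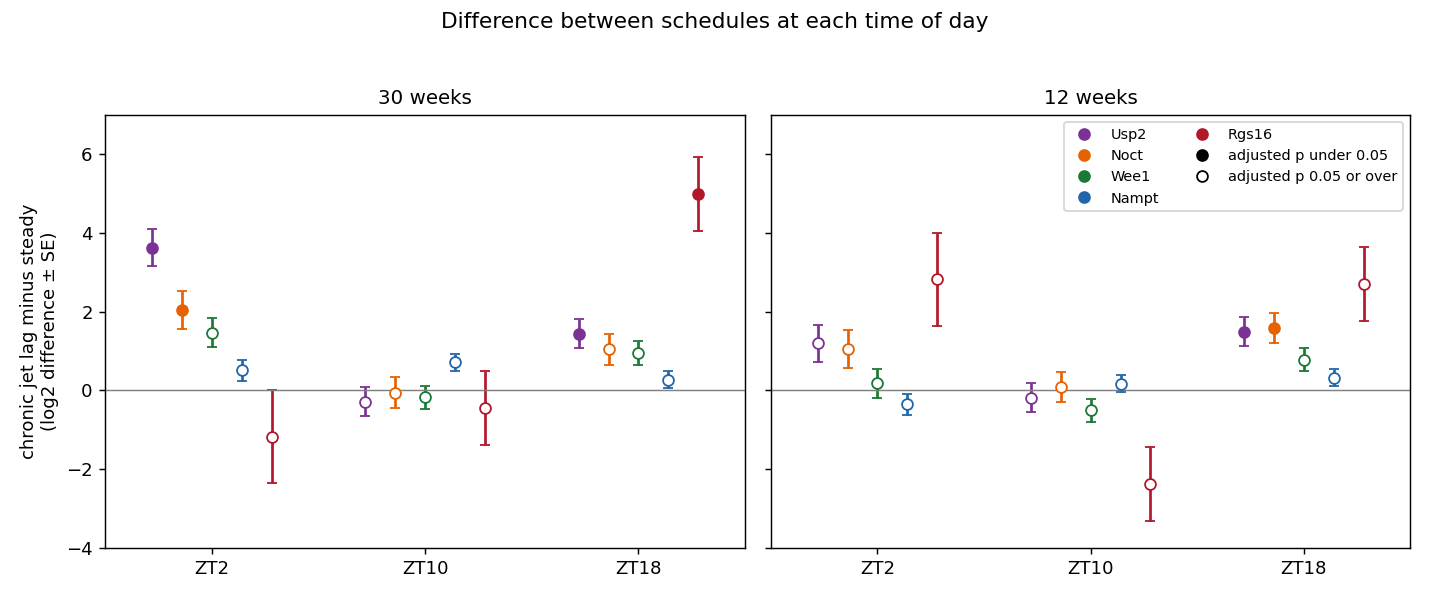
CJ minus NS difference of each gene (log2, fitted value ± SE) at ZT2, ZT10 and ZT18, at 30 weeks (left) and 12 weeks (right); filled points have an adjusted p under 0.05. At ZT18 all 5 differences are above 0 at both ages, whereas at ZT10 Usp2, Noct and Wee1 lie within 0.51 of 0.

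Averaged over the 3 times, 4 of 5 genes were higher in CJ mice at 30 weeks, against 5.99% of all genes changed. Usp2 rose by 1.59 ± 0.22 (3.01-fold, adjusted p = 0.000176), Noct by 1.01 ± 0.23 (2.01-fold, adjusted p = 0.00962), Wee1 by 0.74 ± 0.18 (1.67-fold, adjusted p = 0.0132) and Nampt by 0.49 ± 0.13 (1.41-fold, adjusted p = 0.023). Rgs16 had 1.12 ± 0.56 (adjusted p = 0.278). At 12 weeks 2 of 5 were higher, against 4.36% of all genes changed (451 higher and 557 lower). These were Usp2 by 0.83 ± 0.22 (1.78-fold, adjusted p = 0.0341) and Noct by 0.91 ± 0.23 (1.87-fold, adjusted p = 0.0273). With arrays left out in turn the call of Usp2 was lost in 10 of 32 fits (0.64 to 1.03) and that of Noct in 6 (0.61 to 1.20). Wee1 had 0.15 ± 0.18, Nampt 0.04 ± 0.13 and Rgs16 1.05 ± 0.56. The members' median was 1.01 at 30 weeks and 0.83 at 12 weeks, where that of all genes was -0.01 and 0.02. At 30 weeks the mean of Usp2 ran from 1.15 to 2.03 and that of Wee1 from 0.37 to 1.12 when arrays were left out in turn, the extremes being without 1 CJ mouse at ZT2. The count at 30 weeks was 2 without the first of these mice, where Noct (0.94, adjusted p = 0.0572) and Nampt (0.30, adjusted p = 0.199) did not pass, and 5 without the second, where Rgs16 also passed (2.10, adjusted p = 0.00439).

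Within groups, CJ mice had the larger SD in 4 of the 5 genes, as in 52.8% of all genes. The SD within groups (10 degrees of freedom in each schedule) was 0.68 in CJ and 0.21 in NS mice for Usp2, 0.54 and 0.13 for Wee1, 0.33 and 0.25 for Nampt and 1.54 and 0.85 for Rgs16. Noct gave 0.51 in CJ and 0.60 in NS mice. The median over all genes was 0.23 in CJ and 0.21 in NS mice. Among all genes, Usp2 stood at the 94.3rd percentile of scatter in CJ and the 50.1st in NS mice, and Wee1 at the 88.3rd in CJ and the 20.4th in NS mice. Without the CJ pair at ZT2 and 30 weeks the CJ SD was 0.31 for Usp2, 0.49 for Noct, 0.21 for Wee1, 0.22 for Nampt and 0.98 for Rgs16, so that Nampt then had the smaller SD in CJ mice, a comparison added after seeing the data. The difference in scatter was not tested. In Usp2, Wee1, Nampt and Rgs16 the widest split within any group was that of the CJ pair at ZT2 and 30 weeks. In these 2 mice Arntl, which encodes BMAL1, read -2.15 and 0.86, against 1.86 and 1.92 in the NS pair. The repressor gene Per2 read -1.21 and -2.60, against -2.63 and -2.59 in the NS pair. The first CJ mouse was thus the farther from the NS pair in both, as it was in Usp2, Noct, Wee1 and Nampt. It was the nearer one in Rgs16 and in Nr1d1, which read 0.91 and 1.65 in the CJ pair, against 0.98 and -0.21 in the NS pair.

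With age, 1 of 5 genes changed in CJ mice over the mean of the 3 times, against 4.98% of all genes. Usp2 was higher at 30 than at 12 weeks by 0.79 ± 0.22 (adjusted p = 0.0399). It was higher by 0.35 (adjusted p = 0.209) without the first CJ mouse at ZT2 and 30 weeks, by 1.22 without the second and by 0.10 without the ZT2 groups, and the call was lost in 12 of the 32 fits with 1 array left out. Wee1 passed without the second CJ mouse (0.89, adjusted p = 5.77e-06). Noct had 0.51 ± 0.23 (adjusted p = 0.203), Wee1 0.52 ± 0.18 (adjusted p = 0.0929), Nampt 0.11 ± 0.13 and Rgs16 0.08 ± 0.56. In NS mice 0 of 5 changed, against 0.861% of all genes, and 1 had limma's unadjusted p under 0.05 (Nampt, -0.34 ± 0.13, adjusted p = 0.325), against 9.73% of all genes. Age by time of day called 0 of 5 in CJ mice, against 0.376% of all genes, and 3 of 5 at limma's unadjusted threshold, against 9.74%. In NS mice it called 0 of 5, against 0.147% of all genes, and also 0 of 5 at the unadjusted threshold, against 4.24%. The difference between schedules in the effect of age called 0 of 5, against 0.00865% of all genes, and 3 of 5 at the unadjusted threshold, against 12.7%. It was largest for Usp2 (0.76 ± 0.31, adjusted p = 0.31). Without the second CJ mouse at ZT2 and 30 weeks, Usp2 and Wee1 passed both the CJ test of age by time of day (3.43, adjusted p = 0.000117, and 2.27, adjusted p = 0.000174) and the test of schedule by age (1.20, adjusted p = 0.00582, and 0.97, adjusted p = 0.000718). Without the first, Rgs16 passed the CJ test of age by time of day (7.10, adjusted p = 0.0153). In CJ mice at ZT2 the fitted mean of Usp2 was 2.00 at 30 weeks and -0.15 at 12 weeks, that of Noct 2.45 and 0.57, and that of Wee1 -0.46 and -1.66. These rest on the split pair of mice.

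Over the 12 group means, Usp2, Noct and Wee1 moved together and Rgs16 followed them least. Pearson's r was 0.98 between Usp2 and Noct, 0.98 between Usp2 and Wee1 and 0.96 between Noct and Wee1. Nampt had 0.86 with Usp2, 0.85 with Noct and 0.86 with Wee1. Rgs16 had 0.60 with Usp2, 0.58 with Noct, 0.65 with Wee1 and 0.36 with Nampt. Over the 16 CJ mice Nampt followed Usp2 with r = 0.92, and over the 16 NS mice with r = 0.68. These values describe shared changes over time, schedule and slide and carry no test. Of 13474 other genes with a symbol, Wee1 and Noct had the highest and next highest r with Usp2, and Usp2 had the highest with Wee1.

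Next in likeness to Usp2 over the 12 means were Per1 (r = 0.977), a clock repressor gene, Tnks1bp1 (0.974) and Zfp967 (0.974). For Noct they were Agpat1 (0.987), an acyltransferase of phospholipid and triglyceride synthesis, the orphan nuclear receptor gene Esrra (0.983), Usp2 (0.98), Fam102a (0.976) and Zfp967 (0.972). For Wee1, after Usp2, they were Fzd4 (0.977), a Wnt receptor, Tnks1bp1 (0.976), Lrp4 (0.975) and Stk35 (0.972). For Nampt they were Aifm2 (0.98), Galk1 (0.98), which encodes galactokinase, Homer2 (0.976), Tk1 (0.968) and Marveld1 (0.961). For Rgs16 they were H2az2 (0.957), Necap1 (0.955), Rps6ka1 (0.941), Polg2 (0.94) and Dmac2 (0.936), so its closest gene stood less near than that of any other member.

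Core clock genes also had narrower daily ranges in CJ mice. Of 22 core clock genes other than the 5, 4 changed over the day in CJ and 18 in NS mice at 30 weeks, and 8 in CJ and 19 in NS mice at 12 weeks. Their median range was 0.68 in CJ and 2.38 in NS mice at 30 weeks and 0.82 in CJ and 2.45 in NS mice at 12 weeks. The shares of all genes that changed were 3.71% in CJ and 11.2% in NS mice at 30 weeks, and 5.67% and 17.5% at 12 weeks. Dbp, a PAR bZIP activator of output genes, ranged over 0.69 (adjusted p = 0.695) in CJ and 6.22 (adjusted p = 7.31e-08) in NS mice at 30 weeks, and rose by 2.16 ± 0.25 in its mean (adjusted p = 4.96e-05). Arntl ranged over 0.88 (adjusted p = 0.619) in CJ and 6.11 (adjusted p = 1.61e-07) in NS mice. Both CJ ranges use the mean of the split pair at ZT2, which read -2.15 and 0.86 in Arntl and 5.95 and 4.18 in Dbp. All CJ ranges and counts of list genes at 30 weeks, here and below, rest on that pair. Values without either mouse are given only for the 5 genes. The repressor gene Ciart rose by 2.24 ± 0.26 in its mean at 30 weeks (adjusted p = 5.63e-05) and Nr1d1, which encodes REV-ERB alpha, by 1.27 ± 0.33 (adjusted p = 0.0229). The rise of Nr1d1 was not shared by all times. At 30 weeks it averaged 1.28 at ZT2, -0.29 at ZT10 and -0.73 at ZT18 in CJ mice. In NS mice of that age it averaged 0.39, 0.84 and a low, scattered -4.90 ± 1.44 (SD). In all, the mean was higher in CJ mice for 10 and lower for 1 of the 22 at 30 weeks, and higher for 7 and lower for 1 at 12 weeks. Of all genes, 5.99% changed in either direction at 30 weeks and 4.36% at 12 weeks.

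Of 19 other clock-controlled liver genes, 5 changed over the day in CJ and 16 in NS mice at 30 weeks, and 12 in CJ and 15 in NS mice at 12 weeks. Alas1, the first enzyme of haem synthesis, rose by 1.11 ± 0.25 in its mean at 30 weeks (adjusted p = 0.00947). Elovl3, an elongase of long-chain fatty acids, fell by 1.82 ± 0.30 (adjusted p = 0.000731), and Insig2, which holds back SREBP processing, fell by 0.87 ± 0.17 (adjusted p = 0.00329). In all, 6 were higher and 3 lower in CJ mice at 30 weeks, against 5.99% of all genes changed. Clock-controlled genes thus went both ways. Of 18 genes of the feeding and fasting response, 7 changed over the day in CJ and 7 in NS mice at 30 weeks, and 1 in CJ and 7 in NS mice at 12 weeks. For both lists the shares of all genes were 3.71% in CJ and 11.2% in NS mice at 30 weeks, and 5.67% and 17.5% at 12 weeks. Pdk4, a fasting-induced kinase that curbs glucose oxidation, ranged over 0.94 (adjusted p = 0.426) in CJ and 3.23 (adjusted p = 1.61e-05) in NS mice at 30 weeks and fell by 0.94 ± 0.22 in its mean (adjusted p = 0.0109). Igfbp1, another fasting-induced gene, fell by 1.21 ± 0.33 (adjusted p = 0.0325), while Pck1, a gluconeogenic enzyme, had 0.62 ± 0.20 (adjusted p = 0.0632).

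**Figure D4:**
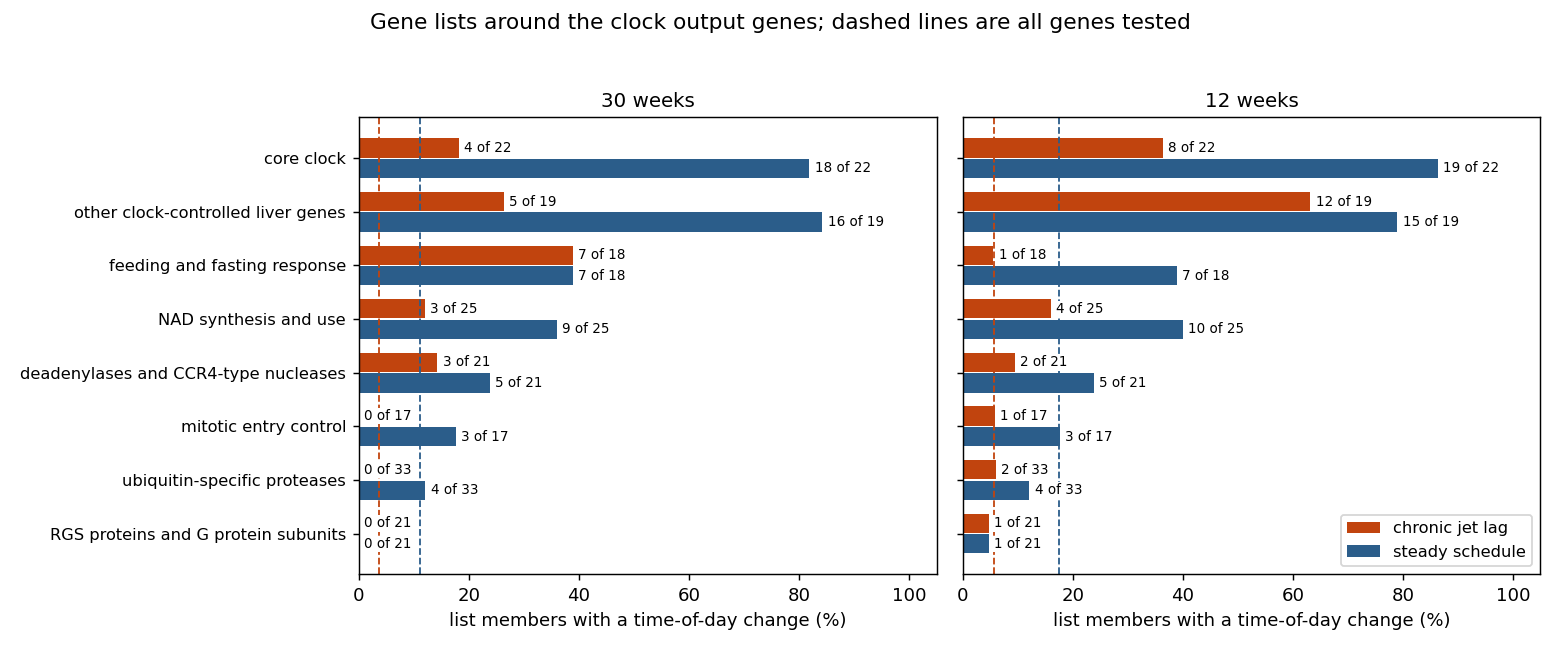
Percent of the tested members of each gene list that changed over the day (adjusted p under 0.05) in CJ mice (orange) and NS mice (blue) at 30 and 12 weeks, with the counts printed beside each bar and dashed lines for all genes. The core clock bars stand at 4 of 22 genes in CJ and 18 of 22 in NS mice at 30 weeks, and those of the RGS and G protein list are at or near 0.

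Genes that share a pathway or family with each of the 5 were counted as well. Of all genes, 3.71% changed over the day in CJ and 11.2% in NS mice at 30 weeks, and 5.67% and 17.5% at 12 weeks. Of 25 other genes of NAD synthesis and use, 3 changed over the day in CJ and 9 in NS mice at 30 weeks, and 4 in CJ and 10 in NS mice at 12 weeks. Their median range, 0.22 in CJ and 0.25 in NS mice at 30 weeks, was below that of all genes. Nmrk1, which makes the NAD precursor nicotinamide mononucleotide from nicotinamide riboside, rose by 0.64 ± 0.13 in its mean at 30 weeks (adjusted p = 0.0042). Acmsd, which diverts tryptophan from NAD synthesis, fell by 1.05 ± 0.15 (adjusted p = 0.000265). In all, 1 gene was higher and 4 were lower in CJ mice at that age, against 5.99% of all genes changed. Nampt, the salvage enzyme itself, is not counted in this list.

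Of 21 deadenylases and related nucleases, 3 changed over the day in CJ and 5 in NS mice at 30 weeks, and 2 in CJ and 5 in NS mice at 12 weeks. All genes gave shares of 3.71% in CJ and 11.2% in NS mice at 30 weeks, and 5.67% and 17.5% at 12 weeks. Btg1, which binds the CCR4-NOT deadenylase complex, ranged over 0.11 (adjusted p = 0.925) in CJ and 1.01 (adjusted p = 3.32e-05) in NS mice at 30 weeks and fell by 0.52 ± 0.08 in its mean (adjusted p = 0.000334). Tob2, a relative of Btg1, ranged over 1.31 (adjusted p = 0.00462) in CJ and 1.41 (adjusted p = 0.00126) in NS mice at that age. Of 17 other genes of mitotic entry control, 0 changed over the day in CJ and 3 in NS mice at 30 weeks. At 12 weeks 1 changed in CJ and 3 in NS mice, near the shares of all genes at that age. The mitotic genes that changed included Ccne1, a cyclin of S phase entry, which ranged over 0.45 (adjusted p = 0.721) in CJ and 2.72 (adjusted p = 2.51e-06) in NS mice at 30 weeks and rose by 0.98 ± 0.16 in its mean (adjusted p = 0.000796). Cdkn1a, the inhibitor p21, ranged over 1.04 (adjusted p = 0.543) in CJ and 3.44 (adjusted p = 0.000148) in NS mice at 12 weeks. It was highest at ZT18 in NS mice, when Wee1 was lower than at ZT10, and a link between them was not tested. Named list genes were picked by a large range in NS mice at 12 weeks, which favours a wider range in NS than in CJ mice.

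Of 33 other ubiquitin-specific proteases, 0 changed over the day in CJ and 4 in NS mice at 30 weeks, and 2 in CJ and 4 in NS mice at 12 weeks. These counts lie near or below the shares of all genes, 3.71% in CJ and 11.2% in NS mice at 30 weeks, and 5.67% and 17.5% at 12 weeks. The largest range among the proteases that changed in NS mice at 12 weeks was 0.90, that of Usp18 (adjusted p = 0.0142), which removes the ubiquitin-like protein ISG15, against 5.38 for Usp2. Of 21 other RGS proteins and G protein subunits, 0 changed over the day in CJ and 0 in NS mice at 30 weeks, and 1 in CJ and 1 in NS mice at 12 weeks. The NS one was Gna11, a Gq-class alpha subunit, with a range of 0.38 (adjusted p = 0.0396), against 5.48 for Rgs16. Counts of this RGS list lie below the shares of all genes just given.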

How the data were processed

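The 32 liver RNAs were labelled with Cy3 and read on Agilent arrays (design 028005). The authors deposited the scanner output of each array, and its processed signal is a background-subtracted intensity per the file headers (Feature Extraction 11.0.1.1, whereas the submitters' processing notes name version 9.1). They also deposited log2 values of 15148 probes, normalised and with a batch effect removed per the series' design text, whose batch is not named. It served as an alternative only.

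Outlier spots were dropped and the rest averaged per probe. Processed signals were divided by their 75th percentile on that array and put on a log2 scale. A probe stayed if some group had it well above background on every array (30488 of 55681), and the brightest probe stood for its gene. RefSeq identifiers were looked up in a RefSeq gene table, which named 14082 of the 23110 genes tested. Group means of the 12 groups were fitted in limma (version 3.58.1, run under R 4.3.3), with the slide (8 slides of 4 arrays) as a random block (correlation 0.245), moderated variances and Benjamini-Hochberg adjustment. All p-values come from this fit unless another is named. Fitted differences weigh arrays by slide and can depart from differences of plain means. The steps were tested on simulated data. Labels name separate mice, and the number of mice limits the precision.

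Members and lists were chosen with earlier results of these data known. Named list genes are the called ones of largest range (up to 4 a list) in NS mice at 12 weeks, plus core clock genes where a result turns on them, and the text gives values for some of these, with 1 of them not reported here. Named like genes are the 5 of highest Pearson r over the 12 group means. Same-numbered mice did not deviate together (mean r -0.02, and 3 of 32 arrays were closest to one of their own number), so numbers name mice and pair none. Alternatives covered background correction, scaling, filters, blocks, markers of other tissues and each array left out in turn. The files hold no mean signal column, so normexp (offset 50) ran on the median signal.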

Additional observations from a re-analysis of the deposited data

Results flagged for a closer look

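Schedule changed the course over the day of Usp2 at 30 weeks by the interaction test: the CJ minus NS difference varied by 3.92 over the 3 times, being 3.62 at ZT2, -0.29 at ZT10 and 1.44 at ZT18 (limma, adjusted p = 0.004). It held with each of the 32 arrays left out in turn (2.69 to 5.33) and in 12 of 15 other settings, but not with the slide as a fixed block (3.66, adjusted p = 0.0688), without acinar-rich arrays (3.76, adjusted p = 0.224) or without muscle-rich arrays (3.91, adjusted p = 0.137). The same test singled out Rgs16 at 30 weeks, where the difference varied by 6.16, being -1.18 at ZT2, -0.44 at ZT10 and 4.98 at ZT18 (adjusted p = 0.0369). That call held in 20 of the 32 fits, with values of 5.58 to 9.31, and in 11 of 15 other settings. It was lost with no filter on dim probes (adjusted p = 0.0723), with the slide as a fixed block (0.237), without acinar-rich arrays (0.278) and without muscle-rich arrays (0.471).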

How the results depend on the processing

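Each result was recomputed under 16 other settings and with each of the 32 arrays left out. All counts here are of the 5 genes past an adjusted p of 0.05. With acinar-rich and muscle-rich arrays both left out, which removes 15 of 32 arrays, time of day called 1 gene in NS mice at 30 weeks and 3 at 12 weeks and 0 in CJ mice at 12 weeks, ZT18 called 0 at both ages, ZT2 called 0 at 30 weeks and the mean at 12 weeks called 0. No CJ mouse of ZT10 and 30 weeks remained there, so comparisons that need that group have no value. Without acinar-rich arrays alone, time of day called 0 in CJ mice at 30 weeks and 2 at 12 weeks, ZT2 at 30 weeks 1, ZT18 at both ages 0, schedule by time of day at 30 weeks 0, the mean 1 at 30 weeks and 0 at 12 weeks, and the CJ age comparison 0. Without muscle-rich arrays alone, time of day called 3 in NS and 0 in CJ mice at 30 weeks and 4 in CJ mice at 12 weeks, and the other counts just named were the same. Without the ZT2 groups, time of day called 0 in CJ mice at both ages, schedule by time of day at 12 weeks 3 and the CJ age comparison 0. With the slide as a fixed block, time of day in CJ mice and schedule by time of day at 30 weeks called 0, ZT2 at 30 weeks 1, ZT18 1 at 30 weeks and 0 at 12 weeks, the mean at 12 weeks 1 and the CJ age comparison 0. With no block, ZT18 and the mean at 12 weeks and the CJ age comparison called 0. With the marker levels as covariates, time of day in CJ mice at 30 weeks called 1, ZT2 at 30 weeks 1, ZT18 at 12 weeks 0, the mean at 12 weeks 1 and the CJ age comparison 0. With no filter on dim probes, time of day in CJ mice at 30 weeks called 2, ZT2, ZT18 and schedule by time of day at 30 weeks 1 each, and ZT18 and the mean at 12 weeks and the CJ age comparison 0. Scaling to the array median called 1 at ZT2 and 30 weeks. In the authors' deposited log2 values, ZT18 called 4 at 30 weeks and 3 at 12 weeks (Rgs16 also passed, 2.61, adjusted p = 0.0396), the mean at 12 weeks 1, schedule by time of day at 12 weeks 1 and the CJ age comparison 0. Normexp and the filter on all 32 arrays each called 1 gene for schedule by time of day at 12 weeks. With mouse number as a replicate block, which pairs no mice by the labels, that test called 1 (Rgs16, 5.28, adjusted p = 0.0416), and Nampt's range in CJ mice at 30 weeks (0.92) had an adjusted p of 0.0594. The block moved no other call of the 5 genes. Why calls changed between settings was not tested, also where a setting left out arrays.

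With single arrays left out, counts ran from 4 to 5 for time of day in NS mice at both ages and from 0 to 4 in CJ mice at 30 weeks. They ran from 1 to 3 at ZT2, at ZT18 and for schedule by time of day at 30 weeks, and from 2 to 5 for the mean at 30 weeks. At 12 weeks they ran from 0 to 1 at ZT2, 0 to 4 at ZT18, 0 to 3 for schedule by time of day and 0 to 2 for the mean. They ran from 0 to 2 for the age comparison in CJ mice, age by time of day in CJ mice and schedule by age.

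Changes of sign touched only differences that passed no test in either setting. The CJ minus NS difference of Noct at ZT10 and 12 weeks (0.08) was 0.00 with normexp, -0.06 with the slide as a fixed block, -0.32 without both kinds of marker-rich arrays, -0.33 without acinar-rich and -0.08 without muscle-rich arrays, and -0.27 to 0.39 with single arrays left out. That of Usp2 was 0.11 without acinar-rich arrays and without both kinds. At ZT10 and 30 weeks the fixed slide gave 0.06 for Noct and 0.21 for Rgs16, and single arrays put Noct at -0.27 to 0.31. Nampt at 12 weeks had -0.21 at ZT18 without muscle-rich arrays, and its mean was -0.08, -0.04 and -0.10 without both kinds, acinar-rich and muscle-rich arrays (-0.03 to 0.12 with single arrays left out). At ZT2 single arrays put Wee1 at -0.03 to 0.38 at 12 weeks, and Nampt at -0.06 to 1.08 and Rgs16 at -4.12 to 1.77 at 30 weeks, where the authors' values gave 0.24 for Rgs16. The age difference of Rgs16 in NS mice (0.01) was -0.02 with quantile normalization, -0.05 with no block, -0.09 with marker covariates, -0.67, -0.58 and -0.49 without both kinds, acinar-rich and muscle-rich arrays, -0.71 without ZT2 and -0.37 to 0.4 with single arrays left out. That of Wee1 was 0.01 in the authors' values and that of Usp2 -0.04 to 0.1. In CJ mice the age difference of Rgs16 was -0.14 with covariates, -0.85 without acinar-rich arrays and -0.9 to 1.06 with single arrays left out. Without ZT2 it was -0.17 for Noct and -0.11 for Nampt (-0.08 to 0.3 with single arrays left out). Schedule by age gave -0.04 with covariates, -0.26 without acinar-rich arrays and -0.92 to 1.05 with single arrays left out for Rgs16, -0.15 without acinar-rich arrays, -0.34 without ZT2 and -0.19 to 0.39 for Noct, and -0.07 without ZT2 for Usp2.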
